A study of Arabidopsis thaliana with 20 samples.

Results

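The transcriptome of Arabidopsis thaliana seedlings at the end of 1 warm hour after dawn was compared with that at the end of 1 warm hour after dusk. The comparison rests on 8 of the 20 RNA-Seq libraries of the series, the 4 libraries titled as AM heat and the 4 titled as PM heat. All seedlings were of the wild-type accession Columbia-0 (Col-0), 2 weeks old, grown on Murashige-Skoog agar plates with 12 h of light a day at 23 °C. AM heat seedlings were held at 30 °C for 1 h from ZT 0.5 (zeitgeber time, the hours since lights on), in the light. PM heat seedlings were held at 30 °C for 1 h from ZT 12.5, in the dark. Time of day and light therefore cannot be told apart in this comparison. Control seedlings of the same kind (AM control and PM control, 4 libraries each) stayed at 23 °C over the same hours. The last 4 libraries came from seedlings in constant light, 1 per condition. The question is which levels each transcript had reached in warm morning and in warm evening seedlings, and whether these levels were further apart or closer than in seedlings that were not warmed.

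The circadian clock of plants is a loop of transcription regulators that repress each other in turn. The MYB-like proteins CCA1 and LHY accumulate around dawn and repress evening genes through a promoter sequence named the evening element. The PRR proteins follow one another through the day and repress CCA1 and LHY, and the evening complex of ELF3, ELF4 and LUX acts in the night. Warmth calls up a second set of regulators, the heat shock factors, which bind heat shock elements and switch on chaperones. Small heat shock proteins hold unfolding proteins, and HSP70, HSP90 and HSP101 proteins refold or release them.

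Counts on loci summed to 16151248 to 29170840 per AM heat library, and to 15753273 to 38812441 per PM heat library. The 10 loci with the most reads took 7.97% to 9.60% of the reads in AM heat libraries and 5.88% to 6.56% in PM heat libraries. Levels are given as CPM, which are counts scaled to a common library total, here adjusted with the TMM factors of edgeR. The labels call the source whole plant tissue, whereas the protocol harvested aerial tissue. The summed level of 8 root markers was 6.75 to 23.8 CPM in AM heat libraries and 6.18 to 25.9 CPM in PM heat libraries, against 49846 to 79992 CPM and 26462 to 34177 CPM for 6 leaf markers. The labels do not say whether the 4 replicates of a group came from separate plates or days, so p-values measure the spread between these libraries. Libraries numbered 1 and 2 stood apart from those numbered 3 and 4 in both groups, along a second principal component that held 12.4% of the variance over the 8 heat libraries, where the first separated AM heat from PM heat with 79.4%. The replicate number was a block in the test.

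Promoter stretches of the genes on which the comparison turned are shown first. Each ends at the base before the annotated start of the gene, is written 5′ to 3′ on the strand of the gene, and was read from the RefSeq assembly TAIR10.1. Capitals mark the motif named for each set, found on either strand. Only stretches that hold the motif are shown, so its presence in them is no result. No one of these motif strings contains another. The first set holds evening genes that were far higher in PM heat libraries, with the evening element AAAATATCT in capitals. They lie at chr5:24003788-24003887 on the plus strand (BOA), chr3:17182942-17183041 on the plus strand (LUX), chr5:24674803-24674962 on the plus strand (TOC1) and chr2:9266558-9266657 on the minus strand (GRP7).
BOA: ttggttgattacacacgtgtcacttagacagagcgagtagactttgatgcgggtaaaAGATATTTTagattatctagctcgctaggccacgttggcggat
LUX: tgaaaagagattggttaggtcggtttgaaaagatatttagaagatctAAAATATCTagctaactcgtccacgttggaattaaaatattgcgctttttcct
TOC1: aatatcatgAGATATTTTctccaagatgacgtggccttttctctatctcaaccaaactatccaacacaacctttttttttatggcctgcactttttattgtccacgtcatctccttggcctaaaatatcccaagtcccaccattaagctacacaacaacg
GRP7: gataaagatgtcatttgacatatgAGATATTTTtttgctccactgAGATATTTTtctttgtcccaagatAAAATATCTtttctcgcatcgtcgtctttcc

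The second set holds heat shock genes whose gap between AM heat and PM heat libraries was wider than the gap between the controls, with the heat shock element GAANNTTC in capitals. AT1G72660, described further on, also had a wider gap, but had no such element in its window and is not shown. They lie at chr1:19980179-19980298 on the plus strand (AT1G53540), chr3:16984868-16984987 on the minus strand (HSP17.4), chr3:2956036-2956155 on the plus strand (APX2) and chr4:13819972-13820091 on the minus strand (HSP21).
AT1G53540: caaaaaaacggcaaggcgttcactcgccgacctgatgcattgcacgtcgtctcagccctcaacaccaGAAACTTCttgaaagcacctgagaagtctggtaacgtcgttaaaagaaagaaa
HSP17.4: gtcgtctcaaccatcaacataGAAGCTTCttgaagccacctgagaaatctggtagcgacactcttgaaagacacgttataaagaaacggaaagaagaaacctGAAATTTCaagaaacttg
APX2: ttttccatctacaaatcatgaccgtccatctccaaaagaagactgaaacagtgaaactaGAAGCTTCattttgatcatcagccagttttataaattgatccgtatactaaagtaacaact
HSP21: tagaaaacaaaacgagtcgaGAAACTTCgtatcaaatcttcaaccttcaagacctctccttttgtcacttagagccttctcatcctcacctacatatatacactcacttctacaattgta

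The third set holds morning genes that were near 0 in PM heat libraries, with the G-box CACGTG, a sequence bound by bZIP and bHLH proteins of light signalling, in capitals. They lie at chr2:19245391-19245590 on the plus strand (CCA1), chr1:37872-37971 on the minus strand (LHY) and chr4:8708741-8708840 on the plus strand (BBX30).
CCA1: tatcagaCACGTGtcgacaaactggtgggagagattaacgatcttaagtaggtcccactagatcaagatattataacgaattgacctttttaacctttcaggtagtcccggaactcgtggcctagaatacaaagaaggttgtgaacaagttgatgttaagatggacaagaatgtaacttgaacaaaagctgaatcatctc
LHY: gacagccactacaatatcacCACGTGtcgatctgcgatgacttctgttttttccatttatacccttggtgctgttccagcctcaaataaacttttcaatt
BBX30: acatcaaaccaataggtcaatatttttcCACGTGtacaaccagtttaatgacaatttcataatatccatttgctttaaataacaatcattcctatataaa

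Warm morning and warm evening seedlings differed in a large share of their transcripts. A count of 10 or more in some library from light:dark cycles admitted 21404 genes to the test, and 9039 of them (42.2%) passed an adjusted p of 0.05 in edgeR's quasi-likelihood test with an absolute log2 difference over 0.5. Of these, 4544 (21.2%) were higher in AM heat and 4495 (21%) were higher in PM heat. The AM heat libraries all lay above the PM heat libraries for 4502 genes (21%), and all below them for 4309 (20.1%), so that 41.2% of genes had no overlap between the groups. The log2 difference, AM heat minus PM heat, had a median of -0.002 over all genes tested. Larger differences were more often toward the morning, with 962 genes higher in AM heat and 535 higher in PM heat by over 2 on the log2 scale, and 100 and 27 genes by over 5. In these bulk samples, fewer cells of a type and less RNA per cell cannot be told apart. When the test was run against the fold limit itself, with edgeR's glmTreat, 5937 genes passed.

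**Figure D1:**
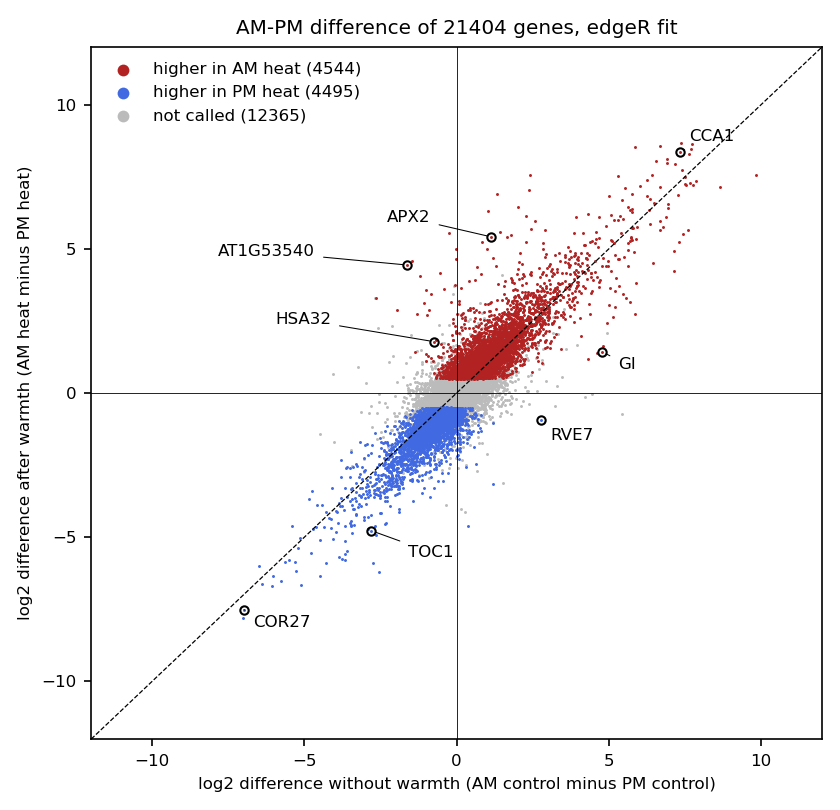
Each point is 1 of 21404 genes; the horizontal axis is the log2 difference AM control minus PM control, the vertical axis the log2 difference AM heat minus PM heat, and the dashed line marks equal differences. The 4544 genes higher in AM heat and the 4495 higher in PM heat lie mostly near the line, with APX2, AT1G53540 and HSA32 above it and RVE7 and GI below it.

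The largest differences toward the morning were in B-box zinc finger genes and clock genes. BBX30 (AT4G15248, chr4:8708841-8709482 in TAIR10.1, 1 exon) had 12.9, 15.0, 19.1 and 14.3 CPM in AM heat libraries, against 0.0507, 0, 0 and 0.0482 CPM in PM heat libraries. Its close relative BBX31 had 13.4, 14.7, 15.71 and 13.8 CPM in AM heat libraries and 0.0253, 0, 0 and 0.0965 CPM in PM heat libraries. B-box proteins are transcription regulators of light responses, and both of these were all but absent in the warm evening. With 1153 counts in AM heat and 3 in PM heat libraries, the BBX30 ratio was 473 with a 95% counting interval of 161 to 2297, and for BBX31, with 1095 and 3 counts, it was 449 with an interval of 153 to 2182. BBX16 followed with 221, 173, 244 and 171 CPM in AM heat libraries, against 0.887, 0.401, 0.264 and 0.579 CPM in PM heat libraries (log2 8.47 ± 0.29, standard error, adjusted p = 2.95e-11). AT2G27420, annotated as a cysteine proteinase, had 115, 129, 133 and 109 CPM in AM heat libraries and 0.405, 0.334, 0.106 and 0.241 CPM in PM heat libraries. The sugar transporter gene SAG29 had 33.8 to 61.0 CPM in AM heat and 0.0669 to 0.338 CPM in PM heat libraries, and the unnamed genes AT2G15020 and AT3G09450 differed by 7.95 and 8.29 on the log2 scale. None of these genes had overlapping groups, but they were chosen by the size of this difference, so this is no separate result. None of them passed the test of a changed gap relative to the controls that is described further on.

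The largest differences toward the evening were in cold-regulated, clock and flowering time genes. COR27 (AT5G42900), a night-expressed repressor of clock and growth genes, had 0.589, 1.16, 1.102 and 1.05 CPM in AM heat libraries, against 138, 177, 187 and 189 CPM in PM heat libraries (log2 -7.52 ± 0.25, adjusted p = 2.64e-11). AT4G33980, listed here as its relative COR28, had 0.482, 0.302, 0.276 and 0.0498 CPM in AM heat libraries, against 52.8, 46.7, 76.3 and 72.5 CPM in PM heat libraries. Both were low in the warm morning, and AT4G33980 was near the limit of counting there. COL9, a CONSTANS-like gene of the photoperiod pathway, had 2.84, 2.54, 3.58 and 2.24 CPM in AM heat libraries and 216, 212, 235 and 228 CPM in PM heat libraries. JMJD5, a clock-linked histone demethylase gene, had 2.84, 3.02, 4.96 and 4.53 CPM in AM heat libraries and 172, 239.7, 233 and 224 CPM in PM heat libraries. In the window of JMJD5 the evening element occurs only after the annotated start, at bases 11 to 19 and 38 to 46. In that of COR27 it occurs before the start, at bases -39 to -31 and -20 to -12. AT5G23240, annotated with a DNAJ heat shock domain, was also an evening gene here, with 0.910 to 2.54 CPM in AM heat libraries and 109 to 174 CPM in PM heat libraries. AT1G15125, annotated as a methyltransferase, and AT1G17665 differed by -6.17 and -6.70 on the log2 scale.

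Morning clock genes stood high in warm morning seedlings. Of 14 tested, 11 were higher in AM heat, 2 were higher in PM heat and 1 did not pass the test, with a median log2 difference of 4.59, against 21.2% and 21% of all genes tested and a median of -0.002. CCA1 (AT2G46830, chr2:19245591-19248915, 8 exons) had 511, 491, 713 and 535 CPM in AM heat libraries, against 1.72, 1.60, 1.11 and 2.51 CPM in PM heat libraries (log2 8.35 ± 0.25, adjusted p = 1.66e-11). LHY, its partner, had 165, 166, 174 and 119 CPM in AM heat libraries and 0.507, 0.602, 0.634 and 0.531 CPM in PM heat libraries. Both dawn repressors were thus present only at trace level in the warm evening. PRR9, the earliest of the PRR repressors, had 99.7, 89.0, 84.3 and 67.0 CPM in AM heat libraries and 0.507, 0.334, 0.211 and 0.482 CPM in PM heat libraries. LNK2, a coactivator that works with RVE8, had 769, 618, 1366 and 1025 CPM in AM heat libraries, against 10.3, 8.09, 9.72 and 11.3 CPM in PM heat libraries. RVE8, an activator of evening genes, had 55.2 to 113 CPM in AM heat and 0.709 to 1.88 CPM in PM heat libraries. LNK1, LNK3 and LNK4 were higher in AM heat by 4.24, 6.86 and 4.94 on the log2 scale.

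The 2 exceptions belonged to the REVEILLE family of CCA1 relatives. RVE2 had 35.1, 25.6, 35.7 and 33.2 CPM in AM heat libraries, against 282, 269, 344 and 374 CPM in PM heat libraries (log2 -3.29 ± 0.17, adjusted p = 1.56e-09). RVE7 had 97.6, 76.6, 107 and 72.2 CPM in AM heat libraries, against 145, 151, 212 and 164 CPM in PM heat libraries (log2 -0.94 ± 0.24, adjusted p = 0.00363). Its groups did not overlap, although the AM control stood above the PM control, at 24.2 ± 9.39 and 3.50 ± 0.897 CPM (SD, n = 4 each). RVE4 missed the fold limit with a log2 difference of 0.48 and passed it without AM heat replicate 2, AM heat replicate 4 or PM heat replicate 3, with 0.52, 0.57 and 0.55. RVE1 and PRR7 were higher in AM heat by smaller steps, 1.54 and 1.63 on the log2 scale.

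Evening clock genes showed the opposite order. Of 14 tested, 12 were higher in PM heat, 1 was higher in AM heat and 1 did not pass. Their median log2 difference was -3.75, and 21% and 21.2% of all genes tested passed in these directions. TOC1 (AT5G61380) had 11.3, 7.72, 12.9 and 9.52 CPM in AM heat libraries, against 244, 259.7, 339 and 280.0 CPM in PM heat libraries (log2 -4.77 ± 0.27, adjusted p = 3.55e-09). The evening complex genes followed: LUX had 8.68, 8.06, 7.09 and 7.77 CPM in AM heat libraries and 143, 137, 139 and 128 CPM in PM heat libraries. ELF3 had 12.0, 9.40, 14.0 and 14.3 CPM in AM heat libraries and 127, 120.5, 138 and 131 CPM in PM heat libraries. ELF4 had 0.107, 0.302, 0.276 and 0.0997 CPM in AM heat libraries and 18.1, 20.1, 15.42 and 19.5 CPM in PM heat libraries. All components of the complex were therefore higher in PM heat, ELF4 by the widest step, and BOA, a relative of LUX, by -5.87 on the log2 scale. GRP7, a clock-driven RNA-binding protein gene with 3 evening elements in the stretch shown, had 26.7, 19.999, 24.7 and 28.6 CPM in AM heat libraries, against 759.6, 899.9, 838 and 1032 CPM in PM heat libraries. FKF1, a blue-light receptor gene of flowering, had 0.0498 to 0.345 CPM in AM heat and 8.20 to 12.0 CPM in PM heat libraries.

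GI was the evening gene that was higher in AM heat. GI had 36.4, 34.0, 21.8 and 22.1 CPM in AM heat libraries, against 12.3, 11.5, 9.67 and 8.20 CPM in PM heat libraries (log2 1.43 ± 0.24, adjusted p = 1.84e-04). The photoreceptor gene ZTL, a partner of GI, did not pass the test, with 51.1 to 68.1 CPM in AM heat and 66.3 to 71.5 CPM in PM heat libraries. CHE passed narrowly with a log2 difference of -0.51, but not without AM heat replicate 2, AM heat replicate 4, PM heat replicate 3 or PM heat replicate 4, when its adjusted p was between 0.0812 and 0.144. In all, CHE was not called under 12 of 24 alternatives. The summed level of the evening list was 241 to 274 CPM in AM heat libraries and 1621 to 1943 CPM in PM heat libraries, and that of the morning list 2471 to 3753 CPM and 661 to 866 CPM.

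**Figure D2:**
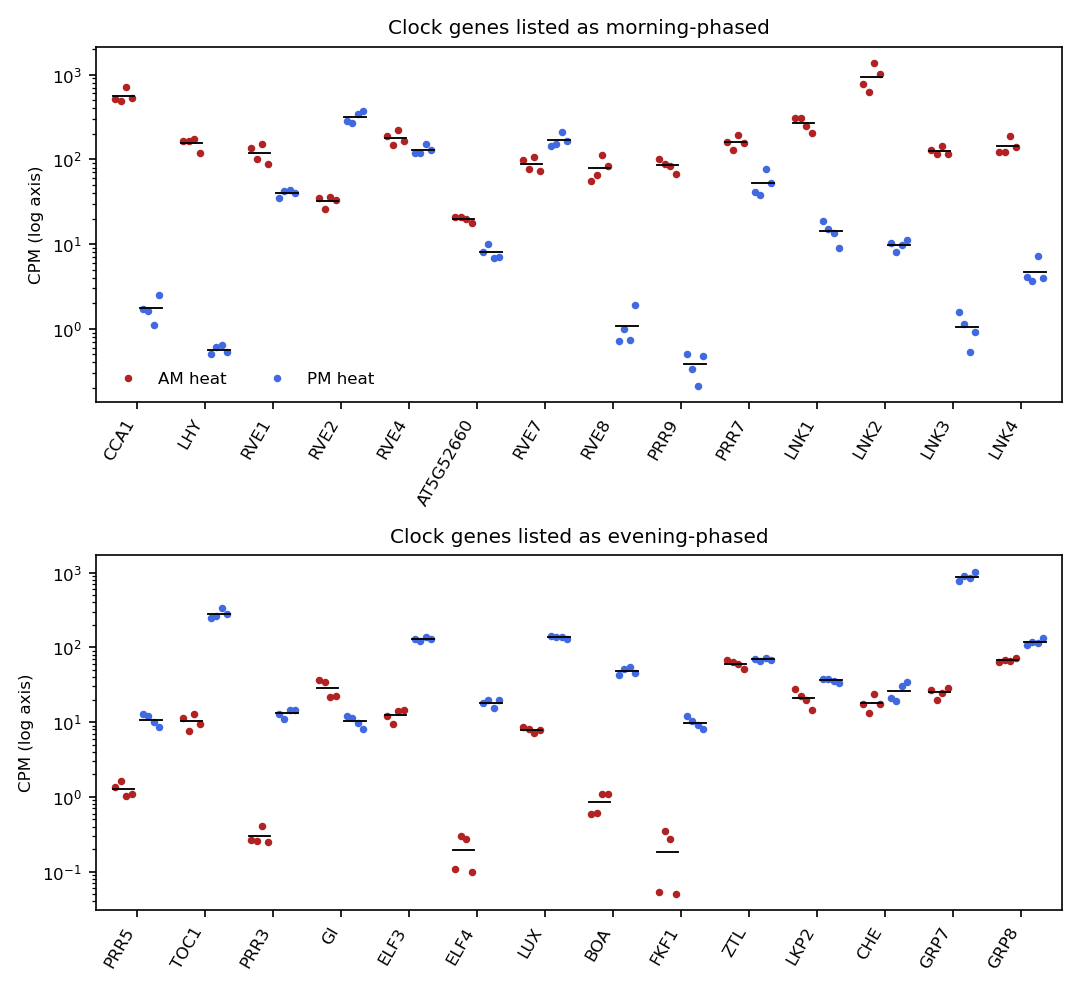
CPM on a log axis of the 14 morning (top) and 14 evening (bottom) clock genes in each of the 4 AM heat and 4 PM heat libraries (points), with the group mean as a bar. CCA1, LHY and PRR9 lie far above their PM heat points, RVE2 and RVE7 lie below theirs, and GI is the evening gene with its AM heat points on top.

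Flowering and growth regulators downstream of the clock were mostly morning-high. Of 8 photoperiod genes, 7 were higher in AM heat and 1, CO, was higher in PM heat. The shares of all genes tested were 21.2% and 21%. CDF genes encode repressors of CO, and CDF3 had 93.9, 88.9, 78.1 and 71.4 CPM in AM heat libraries, against 1.62, 1.94, 1.43 and 1.74 CPM in PM heat libraries. CO, the activator of the florigen gene FT, had 0.138 to 0.268 CPM in AM heat and 2.54 to 3.57 CPM in PM heat libraries, on 16 and 309 counts. FT itself, counted among the 7, did not pass without AM heat replicate 3 or 4 or PM heat replicate 2, 3 or 4 in turn (adjusted p between 0.057 and 0.0961). In all, FT was not called under 11 of 24 alternatives. COL2, a CO relative, was higher in AM heat by 6.58 on the log2 scale. Of 16 phytochrome-interacting factors and growth targets, 11 were higher in AM heat, 2 in PM heat and 3 did not pass, against the same shares. IAA29, counted among the 11, did not pass under 14 of 24 alternatives (adjusted p between 0.0547 and 0.200). PIF4, the factor of warmth-induced stem growth, had 127, 105, 121 and 95.4 CPM in AM heat libraries, against 20.2, 24.3, 20.02 and 19.6 CPM in PM heat libraries (log2 2.41 ± 0.17, adjusted p = 4.91e-08). PIF5, a close relative, had 199, 169, 180.1 and 157 CPM in AM heat libraries and 61.2, 75.3, 77.4 and 58.6 CPM in PM heat libraries. PIF7 and PIF8 (listed as UNE10) were higher in AM heat by 2.53 and 3.56, and YUC8, an auxin synthesis gene that PIF4 activates, by 2.29.

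Light signalling genes were also mostly higher in AM heat, 11 of 16, with 2 higher in PM heat and 3 not passing. The shares of all genes tested were 21.2% in AM heat and 21% in PM heat. ELIP2, an early light-induced protein that shields the photosystems, had 221, 555, 69.2 and 231 CPM in AM heat libraries, against 1.65, 1.74, 0.475 and 1.16 CPM in PM heat libraries. HYH, a bZIP factor, and SPA1, a repressor of light signalling, were higher in AM heat by 2.16 and 2.05. UVR8, the UV-B receptor gene, went the other way, with 76.5 to 92.9 CPM in AM heat and 158 to 205 CPM in PM heat libraries. HY5, a factor of seedling greening, did not pass, with 21.2 to 26.6 CPM in AM heat and 21.5 to 29.1 CPM in PM heat libraries.

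Small heat shock protein transcripts ended at much higher levels in the morning. Of 16 tested, 13 were higher in AM heat, none was higher in PM heat and 3 did not pass. Their median log2 difference was 2.88, and 21.2% and 21% of all genes tested passed in these directions. Their summed level was 14977, 17832, 8087 and 9440.2 CPM in AM heat libraries, against 2158, 1998, 1870.5 and 1843 CPM in PM heat libraries. The lowest AM heat library thus lay above the highest PM heat library, while AM heat replicates 1 and 2 lay above replicates 3 and 4. In the controls the sum was 59.1 to 225 CPM in the AM and 147 to 358 CPM in the PM, so the groups overlapped there. Of the 16 members 3 were higher in AM control and 1 in PM control, with a median log2 difference of 0.15 between the controls. HSP17.4 (AT3G46230, a cytosolic class I protein) had 2394, 2719, 1937 and 2186 CPM in AM heat libraries, against 254, 204, 242 and 328 CPM in PM heat libraries (log2 3.11 ± 0.52, adjusted p = 1.59e-04). AT1G53540, annotated as an HSP20-like chaperone, had 1837, 1992, 845 and 916 CPM in AM heat libraries, against 54.4, 41.9, 52.1 and 61.2 CPM in PM heat libraries (log2 4.44 ± 0.67). HSP21, the chloroplast member, had 96.4, 111, 25.4 and 16.8 CPM in AM heat libraries and 5.52, 5.15, 2.11 and 4.196 CPM in PM heat libraries. The groups did not overlap for any of these genes, but they were picked as examples by the size of their differences. The AM heat libraries all lay above the PM heat libraries for 13 of the 16 members, against 21% of all genes tested.

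Other compartments were represented too. HSP23.6, a mitochondrial member, had 886, 1245, 328 and 418 CPM in AM heat libraries, against 92.9, 110.2, 68.3 and 61.0 CPM in PM heat libraries. HSP22, an endoplasmic reticulum member, had 16.6 to 86.5 CPM in AM heat and 1.95 to 4.69 CPM in PM heat libraries. HSP17.6II, of cytosolic class II, was higher in AM heat by 3.87 on the log2 scale, and HSP18.2 by 4.41. The members that did not pass were AT5G51440, AT1G52560 and AT4G21870. AT4G21870 had 22.4 to 29.8 CPM in AM heat and 27.1 to 82.2 CPM in PM heat libraries, and without AM heat replicate 2 or PM heat replicate 2 it passed as higher in PM heat, each time with a log2 difference of -1.12. Small heat shock protein genes of a class are close in sequence, so reads shared by near-identical copies could not be assigned, and their single values are less certain than the sum. The same holds for the LHCB1, LHCB2, RBCS, HSP90 and BIP genes below. With replicates 1 and 2 alone 15 members passed as higher in AM heat, and with replicates 3 and 4 alone 13.

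The larger chaperones went the same way by smaller steps. Of 31 tested, 26 were higher in AM heat, none was higher in PM heat and 5 did not pass, against 21.2% and 21% of all genes tested in these directions. The AM heat libraries all lay above the PM heat libraries for 11 of the 31, fewer than passed, against 21% of all genes tested. When the replicate block was left out of the fit, 17 passed. The summed level was 43297, 51169.9, 18404 and 19377 CPM in AM heat libraries, against 18296, 17914, 13687 and 10959 CPM in PM heat libraries. AM heat replicates 1 and 2 were far above replicates 3 and 4, which lay just above the highest PM heat library. CLPB3, the chloroplast disaggregase, had 1443, 1461, 434 and 411 CPM in AM heat libraries, against 90.9, 73.0, 45.8 and 43.7 CPM in PM heat libraries (log2 3.70 ± 0.19, adjusted p = 2.02e-09). ROF2, an FKBP-type co-chaperone of HSP90, had 4509, 5214, 1412 and 1574 CPM in AM heat libraries and 825, 500.4, 412 and 379 CPM in PM heat libraries. APX2, a cytosolic ascorbate peroxidase and a target of heat shock factors, had 35.0, 64.7, 24.0 and 18.7 CPM in AM heat libraries and 1.29, 0.869, 0.423 and 0.434 CPM in PM heat libraries (log2 5.42 ± 0.30, adjusted p = 3.10e-09). The groups did not overlap for any of these genes either, but they were picked as examples by the size of their difference or level.

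Overlap appeared for some of the best-known chaperones. HSP90.1, the heat-inducible cytosolic HSP90, had 5382, 5806, 1695 and 1702 CPM in AM heat libraries, against 1863, 1500.1, 907 and 790.3 CPM in PM heat libraries (log2 1.35 ± 0.38, adjusted p = 0.00865, and 0.0683 without the replicate block). It was higher in AM heat within each replicate number, although AM heat replicates 3 and 4 lay below PM heat replicate 1. HSP101, the cytosolic disaggregase needed for acquired thermotolerance, had 1296, 1539.9, 456 and 411 CPM in AM heat libraries and 702, 569, 376 and 333 CPM in PM heat libraries, and did not pass (log2 0.72 ± 0.31, adjusted p = 0.0648). It was higher in AM heat within each replicate number, with overlap between the groups. It passed as higher in AM heat under 6 of 24 alternatives, among them the fit without PM heat replicate 3 (adjusted p = 0.043), DESeq2 (0.0364), the 8 heat libraries alone (0.00839) and replicates 1 and 2 alone (0.00259). HSP70 was higher in AM heat by 1.60, and HSA32, a protein that sustains acquired thermotolerance, by 1.78 on the log2 scale. The endoplasmic reticulum chaperones BIP1 and BIP2 were higher in AM heat by 1.61 and 1.71. The constitutive HSC70-1 did not pass, with 3639 to 6122 CPM in AM heat and 3548 to 5329.9 CPM in PM heat libraries.

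The regulators of these chaperones did not share their order. Of 23 heat shock factor, MBF1C and DREB2 genes tested, 12 were higher in PM heat, 2 were higher in AM heat and 9 did not pass. Their median log2 difference was -0.55, and 21% and 21.2% of all genes tested passed in these directions. HSFA2, the main heat-induced factor, had 529, 619, 319 and 315 CPM in AM heat libraries and 335, 227, 356 and 283 CPM in PM heat libraries, and did not pass (log2 0.41 ± 0.44, adjusted p = 0.455). In replicates 1 and 2 alone it passed as higher in AM heat, with a log2 difference of 1.03 and an adjusted p of 0.0168. MBF1C, a coactivator of the heat response, had 802, 686, 462 and 384 CPM in AM heat libraries and 449.9, 558, 378 and 427 CPM in PM heat libraries and did not pass either (adjusted p = 0.378). For both, AM heat replicates 1 and 2 were high and replicates 3 and 4 were within the PM heat range.

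HSFA3, a late-acting factor under the control of DREB2 proteins, had 2.303, 3.32, 2.34 and 2.14 CPM in AM heat libraries, against 30.2, 33.4, 32.4 and 23.9 CPM in PM heat libraries (log2 -3.61 ± 0.23, adjusted p = 1.17e-08). DREB2A, an activator of HSFA3, had 28.2, 22.8, 18.9 and 16.04 CPM in AM heat libraries and 83.8, 75.5, 64.0 and 66.7 CPM in PM heat libraries. DREB2C had 0.589, 3.75, 2.34 and 0.598 CPM in AM heat libraries and 23.8, 20.3, 9.88 and 9.07 CPM in PM heat libraries. The DREB2 genes and HSFA3 were thus evening-high without overlap. HSFA7A had 46.6, 50.3, 37.3 and 27.7 CPM in AM heat libraries and 73.7, 80.1, 90.16 and 83.7 CPM in PM heat libraries (log2 -1.05 ± 0.22), and HSFA8 was higher in PM heat by -2.37 in the same units. HSFA6B rested on 1 count in AM heat and 89 in PM heat libraries, a ratio of 0.0138 with a counting interval of 0.000346 to 0.0791. The 2 members higher in AM heat were HSFA6A, on 50 and 11 counts, and HSFC1, which did not pass without AM heat replicate 1 (adjusted p = 0.0585).

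Of the HSFA1 genes, which start the heat response, HSFA1A and HSFA1D did not pass, with log2 differences of 0.047 and 0.08. HSFA1B and HSFA1E passed as higher in PM heat, with -0.55 and -0.55. HSFA1B missed the fold limit without PM heat replicate 3, at -0.44. HSFA1E did not pass without AM heat replicates 1, 2 or 4 or PM heat replicates 1, 2 or 4 in turn, with adjusted p between 0.051 and 0.138. In all, HSFA1E was not called under 12 of 24 alternatives. HSFB4 did not pass without AM heat replicate 2, AM heat replicate 4 or PM heat replicate 2 (adjusted p between 0.0798 and 0.101). In all, HSFB4 was not called under 10 of 24 alternatives. HSFB2A, a repressor-type factor, missed the fold limit at 0.49 and passed as higher in AM heat without AM heat replicates 2 or 4 or PM heat replicates 3 or 4, at 0.51 to 0.59.

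**Figure D3:**
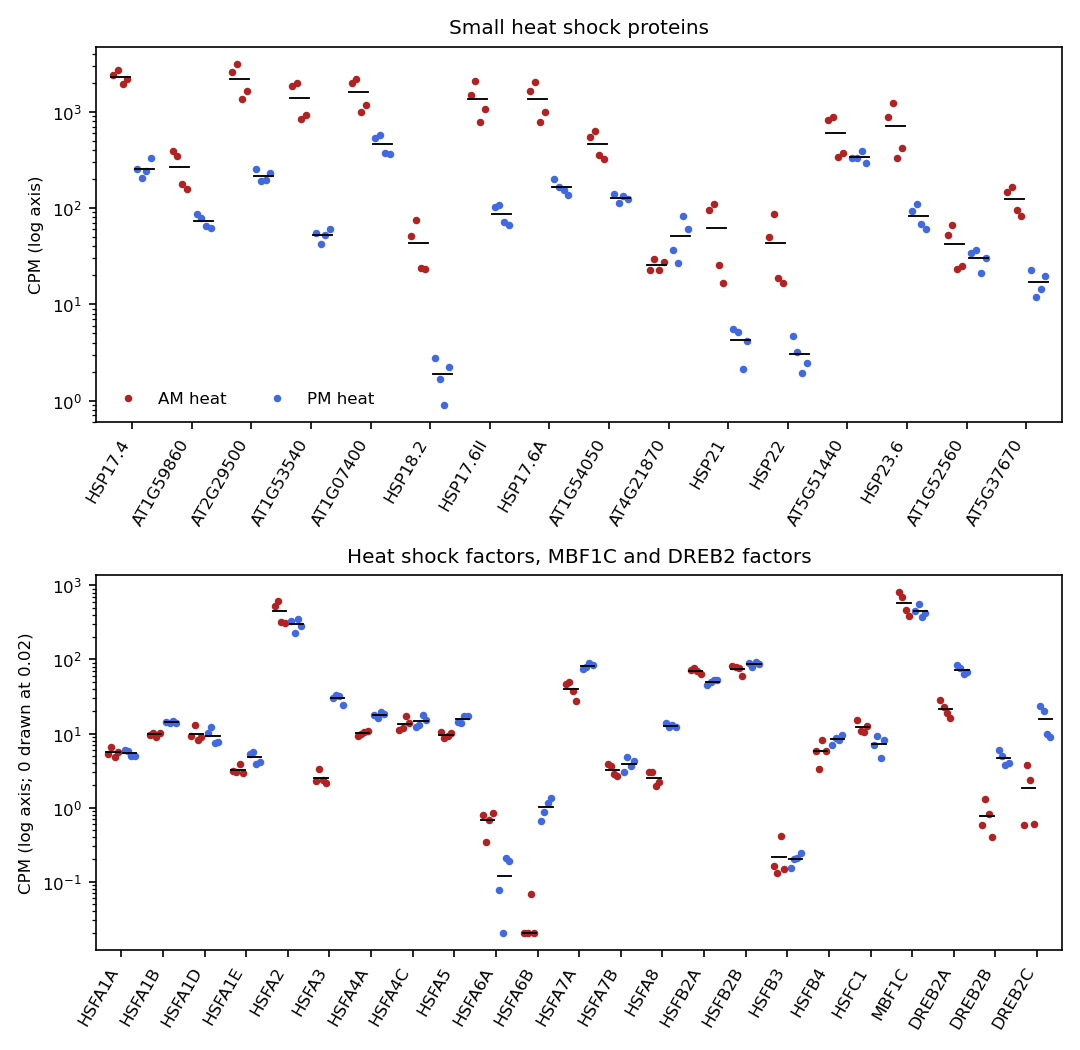
CPM on a log axis of 16 small heat shock protein genes (top) and 23 heat shock factor, MBF1C and DREB2 genes (bottom) in each AM heat and PM heat library (points; values of 0 are drawn at 0.02), with the group mean as a bar. Most small heat shock protein genes have their AM heat points on top, while HSFA3, HSFA8 and the DREB2 genes have their PM heat points on top.

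Of 17 galactinol, cold-regulated and zinc finger genes, 4 were higher in AM heat, 6 were higher in PM heat and 7 did not pass, against 21.2% and 21% of all genes tested in these directions. GOLS1, a heat-induced galactinol synthase gene, had 898, 1215, 728 and 622 CPM in AM heat libraries, against 151, 202, 137 and 177 CPM in PM heat libraries. COR15B, a chloroplast protectant, had 2.04 to 5.57 CPM in AM heat and 17.5 to 62.4 CPM in PM heat libraries, and the dehydrin gene COR47 174 to 288 and 324 to 495 CPM. The zinc finger genes ZAT6 and ZAT12 were higher in PM heat by -1.72 and -1.58 on the log2 scale, while AT2G28200, listed here as ZAT5, was higher in AM heat with 1.85.

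Photosynthesis transcripts made up the most abundant part of both groups. Per kilobase of exon, RBCS1A, a small subunit of the carbon-fixing enzyme Rubisco, led in both, at 16213 CPM per kb in AM heat and 13385 CPM per kb in PM heat. It did not pass the test, with 19575 to 23204 CPM in AM heat and 15668 to 17708 CPM in PM heat libraries. LHCB1.5, RCA, LHCB1.3 and PSBR followed in AM heat, with 10178, 9332, 7259.7 and 6921 CPM per kb. In PM heat RBCS3B, RBCS2B, PSBR and RCA followed, with 4542, 3754, 3584 and 3284 CPM per kb. The LHCB1 antenna genes were thus among the 5 highest in the warm morning and not in the warm evening. Of 24 light-harvesting and Rubisco genes, 20 were higher in AM heat and 4 did not pass, where 21.2% of all genes tested were higher in AM heat. Together the 24 took 10.3% to 12.7% of the reads in AM heat libraries and 4.45% to 5.34% in PM heat libraries. LHCB2.1, an antenna protein of photosystem II, had 5064, 3498, 2546 and 2613 CPM in AM heat libraries, against 29.7, 32.6, 12.0 and 19.0 CPM in PM heat libraries (log2 7.24 ± 0.26, adjusted p = 5.15e-11).

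Of 11 chlorophyll synthesis genes, 7 were higher in AM heat, 1 was higher in PM heat and 3 did not pass. The shares of all genes tested were 21.2% in AM heat and 21% in PM heat. CAO, which makes chlorophyll b, had 393, 334, 387 and 314 CPM in AM heat libraries and 27.3, 28.1, 24.1 and 23.1 CPM in PM heat libraries. PORB, a light-dependent reductase of the pathway, was the exception, with 34.2, 17.84, 23.8 and 25.1 CPM in AM heat libraries, against 186, 204, 131 and 135 CPM in PM heat libraries (log2 -2.73 ± 0.23, adjusted p = 1.97e-07). CRD1, CHLH and GUN4 were higher in AM heat by 3.27, 3.06 and 3.19.

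Carbon transcripts were divided by pathway. Of 15 starch synthesis genes, 8 were higher in AM heat, 3 in PM heat and 4 did not pass, against 21.2% and 21% of all genes tested in these directions. GBSS1, the granule-bound starch synthase, had 562, 614, 346 and 297 CPM in AM heat libraries, against 2.79, 2.14, 2.01 and 2.75 CPM in PM heat libraries (log2 7.49 ± 0.25, adjusted p = 2.95e-11). Starch breakdown showed the other order, with 11 of 16 genes higher in PM heat, 3 higher in AM heat and 2 not passing. DPE1, the plastid disproportionating enzyme, had 6.27, 4.57, 7.03 and 5.83 CPM in AM heat libraries and 57.2, 51.3, 46.8 and 47.4 CPM in PM heat libraries. ISA3, a debranching enzyme, was higher in PM heat by -3.20, and the glucan kinases SEX1 and PWD by -1.92 and -2.63. The beta-amylase genes BAM1 and BAM3 were higher in AM heat, with 1.82 and 1.14 on the log2 scale.

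Sugar-starvation and dark-induced genes were mostly higher in the warm evening, which was spent in the dark. Of 14 tested, 10 were higher in PM heat, 1 in AM heat and 3 did not pass, where 21% of all genes tested were higher in PM heat. The summed level was 830 to 2527 CPM in AM heat libraries and 6339 to 7981 CPM in PM heat libraries. BCAT2, an enzyme of branched-chain amino acid breakdown, had 15.6, 8.66, 11.6 and 4.88 CPM in AM heat libraries, against 223, 242, 280.4 and 197 CPM in PM heat libraries (log2 -4.65 ± 0.62, adjusted p = 2.04e-05). SEN1, a dark-induced gene, had 142, 59.0, 68.7 and 28.7 CPM in AM heat libraries and 940.1, 1172, 930.1 and 932 CPM in PM heat libraries. DIN9, a mannose phosphate isomerase gene, was the member higher in AM heat, with 2.31. KMD4, counted among the 10 higher in PM heat, did not pass under 10 of 24 alternatives. Of 9 nitrate genes, 2 were higher in AM heat, 1 in PM heat and 6 did not pass, against 21.2% and 21% of all genes tested in these directions.

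Flavonoid genes were morning-high almost without exception, with 14 of 15 higher in AM heat and 1, MYB111, not passing. The share of all genes tested that was higher in AM heat was 21.2%. MYB111 passed without AM heat replicate 1 or PM heat replicate 1, at 0.88 and 0.94 on the log2 scale. F3H, an early enzyme of the pathway, had 113, 132, 97.5 and 104 CPM in AM heat libraries, against 6.16, 6.08, 2.90 and 4.92 CPM in PM heat libraries (log2 4.47 ± 0.28, adjusted p = 1.32e-08). PAP1, an activator of anthocyanin synthesis, had 4.12 to 7.84 CPM in AM heat and 0 to 0.127 CPM in PM heat libraries. MYB11, an activator of flavonol synthesis, had 35 counts in AM heat libraries and 0 in PM heat libraries, and the 95% counting interval of the ratio began at 11.1.

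Of 8 genes of abscisic acid synthesis and breakdown, 7 were higher in AM heat and 1 did not pass, against 21.2% of all genes tested. CYP707A1, counted among the 7, did not pass under 9 of 24 alternatives. ABA1, zeaxanthin epoxidase, had 1302, 1112, 743 and 572 CPM in AM heat libraries, against 70.6, 57.6, 46.1 and 46.3 CPM in PM heat libraries. CYP707A2 and CYP707A4, which break the hormone down, were also higher in AM heat, by 4.58 and 3.71. Of 10 jasmonate genes, 1 was higher in AM heat, 3 were higher in PM heat and 6 did not pass, where 42.2% of all genes tested passed, with the repressor JAZ7 among the 3, at -2.57. Of 9 wax genes, 4 were higher in AM heat, 1 was higher in PM heat and 4 did not pass, against 21.2% and 21% of all genes tested in these directions. DEWAX, a repressor of wax synthesis, was higher in PM heat by -3.04 and KCS1, a fatty acid elongase, was higher in AM heat by 2.45. Of 13 plasma membrane aquaporins, 6 were higher in AM heat, PIP2;1 leading with 2.78, and 7 did not pass, where 42.2% of all genes tested passed and 21.2% were higher in AM heat. Of 13 cell division and DNA replication genes, 4 were higher in AM heat, 3 were higher in PM heat and 6 did not pass, against 21.2% and 21% of all genes tested in these directions. MCM2, MCM5 and the PCNA genes of DNA replication were higher in AM heat (1.31, 0.97, 1.42 for PCNA1 and 0.83 for PCNA2), and CYCB1;2, CDKB2;1 and CDKB2;2 of mitosis were higher in PM heat (-1.11, -1.31 and -1.28). CYCB1;2 did not pass without replicate 2 of all groups (adjusted p = 0.0522).

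Of 7 transcripts often used as references 3 passed, about the share over all genes tested (42.2%). UBQ10 was higher in AM heat by 1.16, ACT2 was higher in PM heat with -1.11, and TIP41 passed with -0.54. TIP41 missed the fold limit without AM heat replicate 4 or PM heat replicate 4, at -0.48 and -0.49. SAND, PP2AA3, IPP2 and SYP61 did not pass, SAND having 29.9 to 33.8 CPM in AM heat and 29.8 to 32.4 CPM in PM heat libraries. Of 8 root markers 1 passed, PRP3, at 0.207 to 2.46 CPM in AM heat and 0.898 to 4.94 CPM in PM heat libraries, and it did not pass without any single one of AM heat replicates 1 to 4 or PM heat replicates 1 and 2 (adjusted p between 0.0572 and 0.164).

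**Figure D4:**
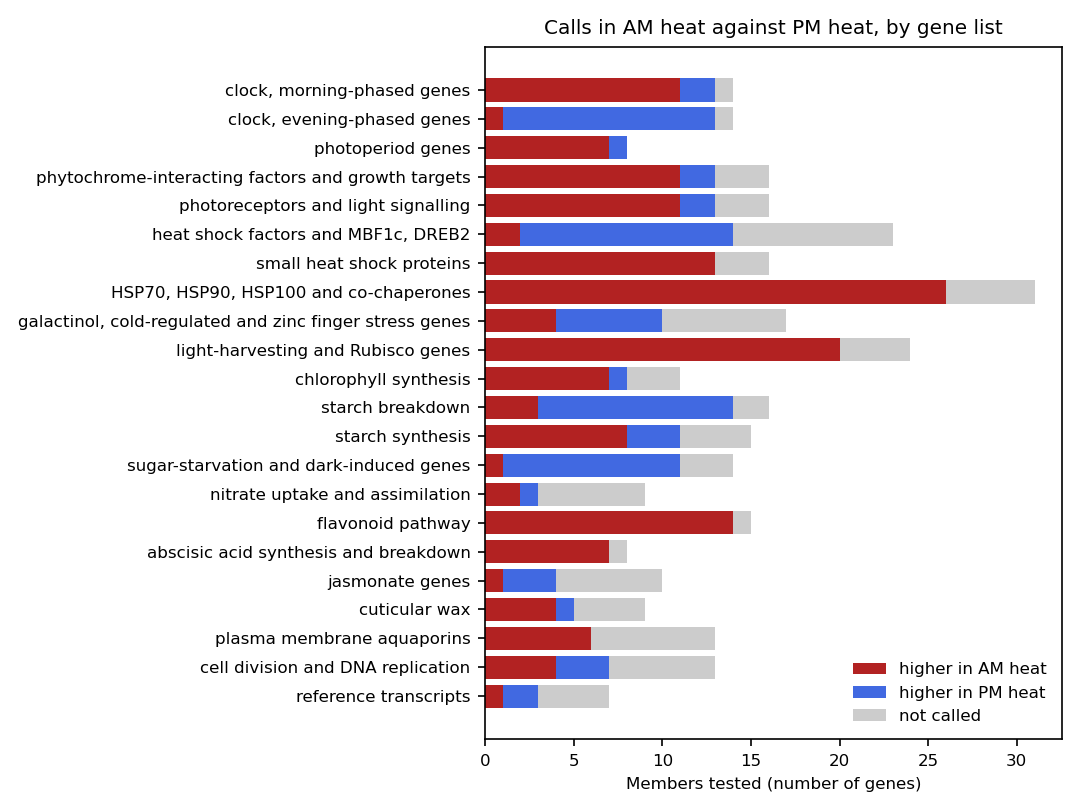
Horizontal bars give for each of 22 gene lists the number of members higher in AM heat, higher in PM heat and not passing. Light-harvesting, flavonoid and both chaperone lists are mostly higher in AM heat, whereas the evening clock, starch breakdown and sugar-starvation lists are mostly higher in PM heat.

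Most of the order between warm morning and warm evening was already present between the controls. AM control against PM control gave 7433 genes (34.7%), 3735 higher in AM control (17.5%) and 3698 higher in PM control (17.3%). Of the 4544 genes higher in AM heat, 2994 were also higher in AM control (65.9%), with a median log2 difference of 1.39 between the heat groups and 1.27 between the controls. Of the 4495 higher in PM heat, 2748 were also higher in PM control (61.1%), with medians of -1.11 and -0.90. For 1539 and 1740 genes the order was called after warmth only, and of these 181 and 127 also passed the test that the gap itself was another than in the controls. The rest lay past the threshold in one comparison and short of it in the other, without a tested difference.

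The difference of the 2 gaps, (AM heat minus PM heat) minus (AM control minus PM control), passed an adjusted p of 0.05 for 688 genes (3.21%), of which 349 were positive (1.63%) and 339 negative (1.58%). This count rested on single libraries and on the block. It was 85 without the replicate block, 19 without replicate 4 of all groups and 1830 without PM control replicate 2. The 85 were all among the 688, and the 1830 included all of them. Small heat shock proteins held 9 such genes of 16, and the larger chaperones 5 of 31, namely BIP1, BIP2, HSP90.7, HSA32 and APX2, all positive. None of the heat shock factor list passed.

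Positive differences were led by heat shock genes. AT1G53540 differed by 6.07 ± 0.94 (adjusted p = 0.00711), with 2.15 to 15.1 CPM in AM control and 3.52 to 76.1 CPM in PM control libraries beside the heat values above. APX2 differed by 4.29, HSP17.4 by 4.19 and HSP21 by 4.01. For HSP17.4, AM control libraries had 5.06 to 15.5 CPM and PM control libraries had 74.4, 16.1, 5.05 and 10.6 CPM. AT1G72660, whose product is annotated as an NTP hydrolase with a P-loop, had 83.4, 113, 73.2 and 63.0 CPM in AM heat libraries, against 7.27, 6.28, 9.93 and 6.61 CPM in PM heat libraries, and differed by 4.26. Its controls stood at 1.57 ± 0.454 CPM in the AM and 3.00 ± 3.07 CPM in the PM (SD, n = 4 each), with 7.45 CPM in PM control replicate 1. In AT1G53540, HSP17.4 and AT1G72660 this replicate was the highest control library, which adds to the difference of the gaps. These genes still passed when only that library was left out. None of these 5 genes passed without replicate 4 of all groups, with adjusted p between 0.0906 and 0.135. HSP21 passed under 18 of 29 alternatives. It did not pass without the block (adjusted p = 0.093) or when replicate number 1, 3 or 4, AM heat replicate 2, AM control replicate 1 or 4, or PM control replicate 1, 3 or 4 was left out in turn, with adjusted p between 0.0577 and 0.216. APX2 also did not pass without replicate 3 of all groups (adjusted p = 0.066). In replicates 1 and 2 alone, AT1G53540, HSP17.4, APX2 and HSP21 did not pass, with adjusted p between 0.104 and 0.315.

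Negative differences were led by genes of the clock and of photoperiod and growth control. RVE7 differed by -3.72 ± 0.36 (adjusted p = 2.38e-04), its order after warmth being the reverse of that in the controls. GI differed by -3.36: its controls were 28.3 ± 7.02 CPM in the AM and 1.05 ± 1.01 CPM in the PM (SD, n = 4 each), a wider gap than after warmth. PRR7 had 161, 129.7, 193 and 154 CPM in AM heat libraries and 40.9, 38.0, 76.2 and 52.1 CPM in PM heat libraries, and 105 ± 14.1 CPM in AM control and 3.68 ± 1.68 CPM in PM control (SD, n = 4 each), a difference of -3.18. PIF5 and COL5, a CONSTANS-like gene, differed by -3.25 and -3.12. In GI, PRR7, PIF5 and COL5 the morning stayed above the evening with and without warmth, and the gap was narrower after warmth. RVE7 and PIF5 passed under all 29 alternatives, PRR7 did not without replicate 4 (adjusted p = 0.0902), and GI and COL5 did not in replicates 1 and 2 alone (adjusted p = 0.176 and 0.188).

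**Figure D5:**
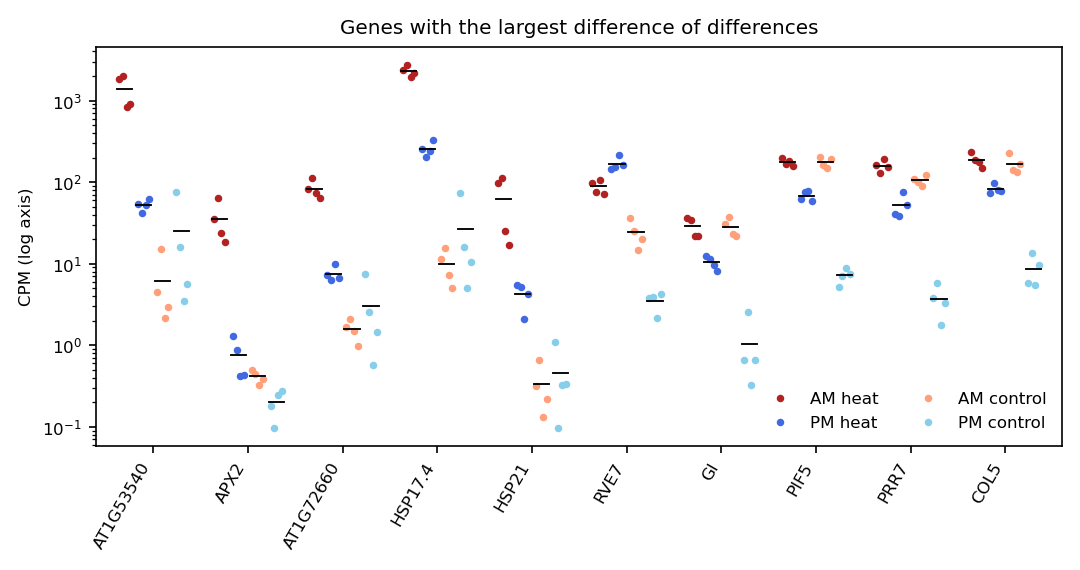
CPM on a log axis of the 5 genes with the largest positive and the 5 with the largest negative difference of the gaps, in each library of AM heat, PM heat, AM control and PM control (points). AT1G53540 and HSP17.4 have their heat groups far apart and overlapping points in the controls, and GI, PRR7 and COL5 have their widest gap in the controls.

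In 18 genes the order was called both after warmth and in the controls, and was opposite. All 18 passed the test of the difference, but opposite gaps add up in that test, so passing it is no separate support. Of these, 11 were higher in AM heat and in PM control. HSA32 averaged 277 ± 97.9 CPM in AM heat and 75.7 ± 10.6 CPM in PM heat (SD, n = 4 each, here and below). Its controls were 6.64 ± 1.56 CPM in the AM and 11.8 ± 7.28 CPM in the PM (adjusted p = 0.0377 in the edgeR test). PDIL2-2, a protein disulfide isomerase, averaged 41.1 ± 12.8 CPM in AM heat and 17.67 ± 3.11 CPM in PM heat. Its controls were 10.3 ± 1.86 CPM in the AM and 18.18 ± 2.85 CPM in the PM. The other 7 were higher in PM heat and in AM control. Beside RVE7 they included the dehydrin gene LTI30, with 8.28 ± 2.03 CPM in AM heat and 19.0 ± 5.23 CPM in PM heat. Its controls were 38.9 ± 11.1 CPM in the AM and 23.0 ± 2.88 CPM in the PM. WRKY33, a regulator of defence genes, averaged 32.6 ± 13.4 CPM in AM heat and 52.0 ± 11.3 CPM in PM heat. Its controls were 43.3 ± 11.4 CPM in the AM and 31.1 ± 16.8 CPM in the PM (adjusted p = 0.041 in the edgeR test). These genes were named after their values were seen.

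The motifs in the stretches shown were counted in windows of 300 bases, 250 before and 50 after each annotated start, for 21266 of the 21404 genes. The evening element AAAATATCT was in 1.98% of the windows of genes higher in AM heat and in 5.30% of those higher in PM heat, against 2.92% of all windows. Among genes higher in PM heat by over 3 on the log2 scale it was in 35 of 189 windows, and among those higher in AM heat by over 3 in 3.11%. The G-box CACGTG was in 11.9% of windows of genes higher in AM heat and 7.55% of those higher in PM heat, against 8.68% of all. For differences over 3 on the log2 scale, its shares were 16.3% toward AM heat and 11.6% toward PM heat. Positive differences of the gaps had it in 12.3% of windows and negative ones in 14.5%. The heat shock element GAANNTTC was in 11.5% and 11.2%, against 11.4% of all, and in 5 of the 16 small heat shock protein windows (31.2%). Among genes that passed the test of the difference of the gaps, it was in 12.6% of the windows of positive and 11.5% of those of negative differences. Both strands were searched, and a match is a description of letters, not a binding site.

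In constant light, with 1 library per condition and thus no replicate check, most of these genes kept their order. Of 3201 genes higher in AM heat with a mean of at least 5 CPM, 82.7% were higher in the constant light AM heat library than in the constant light PM heat library, and of 3481 higher in PM heat, 80.2% were lower there. Among 7828 genes that did not pass the share that was higher in the AM heat library was 49.5%. CCA1 had 408 CPM in the constant light AM heat library and 18.8 CPM in the PM heat library, and TOC1 40.3 and 345 CPM. HSP17.4 had 1323 CPM in the constant light AM heat library and 257 CPM in the PM heat library, and AT1G53540 287 and 118 CPM. ELIP2 and RVE7 had the other order there, with 5.14 CPM in AM heat and 9.72 CPM in PM heat for ELIP2, and 215 and 82.3 CPM for RVE7.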

How the data were processed

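RNA-Seq libraries of AM heat, PM heat, AM control and PM control (4 each) and of constant light (1 per condition) were used, each assigned to its group by its title. The values deposited are raw read counts per locus, which the authors made from poly(A)-selected libraries with TopHat2 2.1.0 and HTSeq 0.6.0 on TAIR10. The study's methods state counting on the reverse strand. Alignment and counting were not repeated, and reads shared by near-identical genes or lacking a poly(A) tail are underrepresented.

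The main test was edgeR 4.0.16 in R 4.3.3 (TMM, glmQLFit and glmQLFTest, Benjamini-Hochberg adjustment over all genes tested) on the 16 libraries from light:dark cycles, with 4 groups and the replicate number as a block. Of 33601 loci, those reaching 10 counts in any 1 of these libraries entered the test. A gene was called at an adjusted p under 0.05 together with an absolute log2 difference over 0.5, and the difference of the gaps had no fold limit. Standard errors are the absolute log2 difference over the square root of the F statistic. Where DESeq2 1.42.0 gave a value, it is named. Beside the block required for the comparison, the labels give no shared day for a number. Deviations from the group means correlated between all 24 pairs of same-numbered libraries (r 0.106 to 0.790, mean 0.502, over 14816 genes). Differently numbered libraries within numbers 1 and 2, or within 3 and 4, correlated nearly as well between groups (mean r 0.483). Pairs across these sets had a mean r of -0.492. The correlations thus show the split of numbers 1 and 2 from 3 and 4, and give little sign that single numbers pair the libraries. The number was still kept as the block, and the count for the difference of the gaps depended on that choice. Replicates of a heat group all differed by more than sampling alone would give (chi-square per gene 11.5 to 78.4, counts scaled by library totals). None was thus a plain copy of another library, but whether replicates shared a plate or an RNA pool cannot be told from these values.

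The comparison, the gene lists and the genes shown were chosen with earlier results of these data known. Genes named are, in each direction, the 10 with the largest difference among called genes averaging 5 CPM or more whose sign agreed across the 4 replicate numbers; the 5 highest per kilobase of exon in each group; the 5 with the largest difference of the gaps in each direction among called genes averaging 5 CPM or more; and members of the lists. HSFA9, HSFB1, HSP70T-1, CBF1, PORA and MAH1 had too few counts to be tested. Gene names, exons and promoter windows came from TAIR10.1, searched with Python 3.11, whereas the counts were made on TAIR10. Counting intervals are exact at 95% and cover counting error only. The alternatives were no block or a block of number pairs, DESeq2, scaling by RLE or upper quartile, other count filters, glmTreat, the heat libraries alone, libraries left out and windows of 250 bases. The fits to replicates 1 and 2 alone and to 3 and 4 alone were added after the data had been seen.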

Additional observations from a re-analysis of the deposited data

Results flagged for a closer look

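Among 92 genes (those named by rank and the clock, heat shock factor and small heat shock protein lists), the AM heat and PM heat groups were searched, and the control groups were not. Of 184 groups of 4 libraries, 9 (4.89%) held a library far from the other 3 by Dixon's criterion, where chance alone gives about 1 in 20. In AM heat these were LHY in replicate 4 (119 CPM, others 165 to 174), RBCS1A in replicate 3 (23204 CPM, others 19575 to 19836), HSFB2B in replicate 4 (60.4 CPM, others 77.6 to 81.1) and HSFA3 in replicate 2 (3.32 CPM, others 2.14 to 2.34). At very low levels they were PRR3 (0.413 CPM, others 0.249 to 0.268), HSFB3 (0.413 CPM, others 0.129 to 0.161) and HSFA6B (0.0689 CPM, others 0), all in AM heat replicate 3. In PM heat they were AT1G17665 in replicate 1 (28.7 CPM, others at 36.0) and LNK4 in replicate 3 (7.24 CPM, others 3.68 to 4.08).

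The gap between AM and PM differed between heat and control libraries, by the test of the difference itself, in the 10 genes described above. The log2 differences of the gaps were 6.07 for AT1G53540, 4.29 for APX2, 4.26 for AT1G72660, 4.19 for HSP17.4 and 4.01 for HSP21. They were -3.72 for RVE7, -3.36 for GI, -3.25 for PIF5, -3.18 for PRR7 and -3.12 for COL5.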

How the results depend on the processing

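The number of genes called in AM heat against PM heat (9039) was 8142 to 8963 when 1 replicate number or library was left out, 7906 without the replicate block (7870 of them shared with the 9039), 9069 with DESeq2 (8929 shared), and 5937 with glmTreat. AM control against PM control (7433) ranged from 6280 to 7493 with a number or library left out and gave 6143 without the block and 4180 with glmTreat. The difference of the gaps (688) was the least stable count. It was 19 to 1830 with a number or library left out, 85 without the replicate block (all shared), 1100 with the pair of numbers as the block (675 shared), 1667 with DESeq2 (678 shared), 15 in replicates 1 and 2 alone (14 shared) and 1681 in replicates 3 and 4 alone (470 shared); the cause was not tested. With windows of 250 bases, the evening element was in 4.05% of windows of genes higher in PM heat and 2.42% of all. The heat shock element was in 9.33% of windows of genes higher in AM heat, 9.35% of those higher in PM heat and 9.37% of all, and the G-box in 9.77%, 6.41% and 7.32%, since these windows are shorter. Of 343 genes named or in a list, 77 changed their call under at least 1 of 24 alternatives and none changed its direction while called. Counting depth limits genes such as HSFA6B, MYB11 and CO, whose ratios rest on few counts in one group.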
